A study of Mus musculus with 18 samples.

Results

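The genes of the cell cycle and of DNA replication were described in BMC cells, an immortalised line of mouse brown preadipocytes that was differentiated into brown adipocytes, a thermogenic type of fat cell. The genes were chosen by symbol, with earlier results of these data known. They are 48 of the 45706 genes in the deposited table, 28 that act in the G1 and S phases and 20 that act in G2 and mitosis. All 48 passed a filter on low counts that left 14788 genes for testing. The 18 libraries hold total RNA after depletion of ribosomal RNA. By their labels they fall into 3 groups of 6: cells not induced (0 h), cells 4 h after 1 µM norepinephrine and cells 24 h after 1 µM norepinephrine, the transmitter of sympathetic nerves. All 3 groups, the one at 0 h included, had been differentiated and were used on day 7. The cocktail held 0.5 mM IBMX, 0.125 mM indomethacin and 1 µM dexamethasone, besides 1 nM T3 and 20 nM insulin. The titles number the libraries 1 to 6 within each time. A single immortalised line was used, and the labels do not give the share of cells that differentiated. Nor do they say that replicates are separate cultures, so the p-values reflect how far these 18 libraries scatter, which may be technical variation alone.

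A dividing cell passes G1, copies its DNA in S phase and separates the copies in mitosis. Cyclin D and cyclin E with their kinases open the way into S phase, inhibitors such as p21 and p27 hold it shut, and transcription factors of the E2F family switch on the genes that license origins and copy DNA. Genes of G2 and mitosis are switched on later through other promoter elements. Preadipocytes are known to leave the cell cycle as they become fat cells. In RNA from a whole culture, fewer dividing cells and less of the RNA per cell cannot be told apart.

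Levels are given as CPM, counts relative to a library size scaled by the trimmed mean of M values, which may be compared between libraries for 1 gene but not between genes of different length. Expected counts totalled 7010742 to 26501223 per library. The library at 24 h with number 5 stood apart. It had the lowest total, and 41.5% of its counts lay on Yam1 and Gm26917, transcripts that overlap ribosomal RNA, against 6.78% to 10.6% in the other 17 (Wilson 95% interval 41.457% to 41.530%, counting error only). The members held 0.194% of its counts and 0.474% to 0.539% of the counts of the others. The libraries also grouped by number more than by time. Libraries of different times deviated from their time means together when they had the same number (correlation 0.297 to 0.718 in 18 pairs) or numbers 3 apart (0.237 to 0.688 in 18 pairs), and not otherwise (-0.45 to 0.018 in 72 pairs). The libraries are therefore described both by labelled time and by 3 sets of numbers, 3 and 6, 2 and 5, and 1 and 4. What the sets stand for is not given by the labels, and the time labels may not mark the treatment the cells received. The sets were noticed in these same libraries, so tests between them describe these libraries and are no independent evidence that the sets exist.

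The labelled cell type was checked against markers. Of 16 markers of brown adipocytes, 15 passed the filter on low counts, among them Adipoq (adiponectin) at 418 to 877 CPM, Fabp4 (a fatty acid binding protein) at 1807 to 2884 CPM and Ucp1 (the uncoupling protein) at 1.08 to 18.03 CPM. Elovl3, a fatty acid elongase, did not pass. Of the 15, Dio2 at 0.0 to 2.75 CPM, Cox8b at 1.45 to 5.82 CPM and Plin5 at 1.33 to 4.28 CPM were near the floor. Markers of preadipocytes and fibroblasts were present as well, 12 of 16 passing, among them Fn1 at 748 to 1662 CPM and Col1a1 at 393 to 1037 CPM. Markers of endothelium were near 0 throughout, with Cdh5 at 0 in all 18 libraries, and of 8 macrophage markers only Cd68 passed, with Adgre1, C1qa and C1qb at 0 in all 18.

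RefSeq promoters, 250 bases before to 50 bases after the start of transcription on GRCm38.p6 (the build also called mm10), were found for 37 of the 48 members. The 11 others are Ccne2, Ccnd1, Gins1, Aurkb, Foxm1, Tpx2, Ccnd2, Pole, Gins2, Ccna2 and Mcm4. Exact matches were sought on both strands for E2F sites (TTTCCCGC or TTTGGCGC), for the cell cycle homology region, CHR (TTTGAA or TTTAAA), and for the CCAAT box (CCAAT). No motif contains another, but neighbouring matches may share a base. A gene was counted if any of its promoters held a match. An E2F match was present for 8 of 21 G1/S genes (38.1%), for 0 of 16 G2/M genes and in 1.56% of all 32851 promoters. Within the G1/S genes, 6 of 8 genes of origin licensing and helicase held one (75.0%). A CHR match was present for 14 of 16 G2/M genes (87.5%), for 7 of 21 G1/S genes (33.3%) and in 27.6% of all promoters. CCAAT was present for 14 of 16 G2/M genes, 14 of 21 G1/S genes (66.7%) and 37.4% of all promoters. CHR and CCAAT occurred together for 13 of 16 G2/M genes (81.2%), 5 of 21 G1/S genes (23.8%) and 10.7% of all promoters. A match describes these letters only and is no evidence that a factor binds there.

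Stretches of 120 bases are shown for 3 licensing genes with an E2F match and for 5 mitotic genes with CHR and CCAAT matches. Most licensing genes were higher and most mitotic genes lower in numbers 2 and 5 than in 1 and 4. Kif11 is shown too, though it did not pass in that comparison. Each stretch is written 5′ to 3′ on the strand of its gene, and capitals mark the matches on either strand. The Mcm6 stretch is chr1:128359706-128359825 on the minus strand, Mcm5 is chr8:75109349-75109468 on the plus strand and Mcm7 is chr5:138171944-138172063 on the minus strand. Mki67 is chr7:135716460-135716579 on the minus strand, Top2a is chr11:99024190-99024309 on the minus strand and Ube2c is chr2:164769809-164769928 on the plus strand. Ccnb1 is chr13:100786487-100786606 on the minus strand and Kif11 is chr19:37376262-37376381 on the plus strand. All 8 lie upstream of the RefSeq start of their gene.
Mcm6: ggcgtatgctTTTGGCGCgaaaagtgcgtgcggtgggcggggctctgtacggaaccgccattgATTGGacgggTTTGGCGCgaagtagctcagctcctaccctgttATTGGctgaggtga
Mcm5: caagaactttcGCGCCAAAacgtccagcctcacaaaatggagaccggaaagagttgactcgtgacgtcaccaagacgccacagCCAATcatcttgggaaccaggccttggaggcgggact
Mcm7: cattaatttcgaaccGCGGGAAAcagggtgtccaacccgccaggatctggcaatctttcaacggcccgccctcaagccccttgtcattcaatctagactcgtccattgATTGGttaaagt
Mki67: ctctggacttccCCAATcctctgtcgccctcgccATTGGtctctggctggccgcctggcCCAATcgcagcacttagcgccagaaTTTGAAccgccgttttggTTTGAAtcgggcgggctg
Top2a: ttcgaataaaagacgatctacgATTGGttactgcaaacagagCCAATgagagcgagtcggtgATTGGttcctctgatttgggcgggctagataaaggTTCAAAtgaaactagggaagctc
Ube2c: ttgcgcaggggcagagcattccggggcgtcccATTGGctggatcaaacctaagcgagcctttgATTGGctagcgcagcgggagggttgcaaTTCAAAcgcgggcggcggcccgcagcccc
Ccnb1: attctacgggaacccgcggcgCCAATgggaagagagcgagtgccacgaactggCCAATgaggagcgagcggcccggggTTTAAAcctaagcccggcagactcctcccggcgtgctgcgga
Kif11: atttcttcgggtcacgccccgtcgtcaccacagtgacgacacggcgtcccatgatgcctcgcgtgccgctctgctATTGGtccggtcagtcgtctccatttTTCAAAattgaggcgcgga

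The series asks which transcripts change at each time after norepinephrine starts the breakdown of stored fat. By labelled time the cell cycle genes differed little. None of the 48 members passed at 4 h against 0 h with edgeR (adjusted p under 0.05), where 0.0% of all genes tested passed, and none had an unadjusted p under 0.05, against 1.17% of all genes. The same held at 24 h against 0 h (0.0% of all genes passed, 1.07% unadjusted) and at 24 h against 4 h (0.0% and 0.926%). This model holds time only, so differences between replicate numbers stay in its error, and a model with the number as a block is given below. In none of the 3 comparisons did the groups of a member lie wholly apart, which was so for 0.0676%, 0.0406% and 0.0% of all genes. DESeq2 and limma-voom also called 0 members at each of the 3 comparisons. The median log2 fold change of the 28 G1/S genes was 0.04 at 4 h against 0 h, -0.02 at 24 h against 0 h and -0.07 at 24 h against 4 h. For the 20 G2/M genes it was -0.02, -0.02 and -0.01, and for all genes tested 0.01, -0.0041 and -0.01. With library totals in place of the scaling, the medians at 24 h against 0 h were -0.19 for both lists beside -0.17 for all genes.

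Mki67, which encodes the proliferation antigen Ki-67, had 592 to 971 CPM at 0 h (median 646), 584 to 946 at 4 h (median 639) and 580.1 to 955 at 24 h (median 620.0). The 3 ranges nearly coincide. Top2a, the topoisomerase that untangles sister chromatids, had 354 to 444 CPM at 0 h (median 379.9), 337 to 442 at 4 h (median 384) and 329 to 434 at 24 h (median 369). Pcna, the sliding clamp of DNA polymerase, had 117 to 137 CPM at 0 h (median 120.3), 122 to 138 at 4 h (median 126) and 111 to 136 at 24 h (median 121). Mcm2, a subunit of the replicative helicase, had 119.7 to 153 CPM at 0 h (median 129.6), 126 to 167 at 4 h (median 136.5) and 121 to 159.5 at 24 h (median 133). In each of these genes the range within a time was wider than the distance between the medians.

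The G1 regulators spread more widely within each time. Ccnd1, which encodes cyclin D1, had 1.45 to 15.7 CPM at 0 h (median 3.36), 2.41 to 17.1 at 4 h (median 5.42) and 1.26 to 17.8 at 24 h (median 8.39). The log2 fold change was 0.28 at 4 h (95% interval -1.22 to 1.79) and 0.39 at 24 h (-1.12 to 1.90), both against 0 h, each with an edgeR adjusted p of 1.0. Ccnd2, cyclin D2, had 20.2 to 36.8 CPM at 0 h (median 30.5), 21.9 to 37.6 at 4 h (median 32.3) and 19.2 to 39.9 at 24 h (median 28.4). The inhibitors of cyclin-dependent kinases overlapped too. Cdkn1a, which encodes p21, had 34.6 to 69.8 CPM at 0 h (median 51.8), 32.3 to 71.6 at 4 h (median 53.1) and 31.9 to 66.9 at 24 h (median 50.8). Cdkn1b, which encodes p27, had 82.0 to 160.3 CPM at 0 h (median 102.5), 85.2 to 162 at 4 h (median 100.3) and 85.7 to 148 at 24 h (median 107). All 3 ranges of each gene overlap, so no order of the times can be read from them.

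Within the numbers the minichromosome maintenance genes Mcm2 to Mcm7, whose products form the helicase, differed between times by small amounts. These were of 1 sign at 4 h against 0 h and at 24 h against 4 h, but not at 24 h against 0 h. Their mean log2 CPM at 4 h exceeded that at 0 h in 6 of 6 numbers, with differences of 0.036 to 0.076, and at 24 h it was below that at 4 h in 6 of 6, with differences of -0.106 to -0.007. For all 28 G1/S genes the difference of 4 h and 0 h was above 0 in 5 of 6 numbers (-0.027 to 0.089), and that of 24 h and 4 h was below 0 in 6 of 6 (-0.134 to -0.027), so that the second sign was not limited to Mcm2 to Mcm7. For the 20 G2/M genes the first difference was above 0 in 2 of 6 (-0.065 to 0.087) and the second below 0 in 3 of 6 (-0.056 to 0.031). The difference of 24 h and 0 h was above 0 in 3 of 6 numbers for Mcm2 to Mcm7 (-0.035 to 0.048). It was above 0 in 1 of 6 for the G1/S genes (-0.064 to 0.062) and in 2 of 6 for the G2/M genes (-0.112 to 0.118). With the number as a block in the model the log2 fold change of Mcm2 at 4 h against 0 h was 0.09 (SE 0.03), the smallest adjusted p among the members, and that of Mcm3 was 0.08 (SE 0.03). These did not pass, with edgeR adjusted p = 0.367 and 0.422. The blocked model called 0 of the 48 members in each comparison of times, and 0.0%, 0.00676% and 0.0% of all genes. Its unadjusted edgeR p was under 0.05 for Mcm2 and Mcm3 at 4 h against 0 h. At 24 h against 0 h this was so for Tk1, Gins1 and Ccne2, and at 24 h against 4 h for Ccna2, Tk1 and Pcna. The share of all genes with such a p in the blocked model is not given here.

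**Figure D1:**
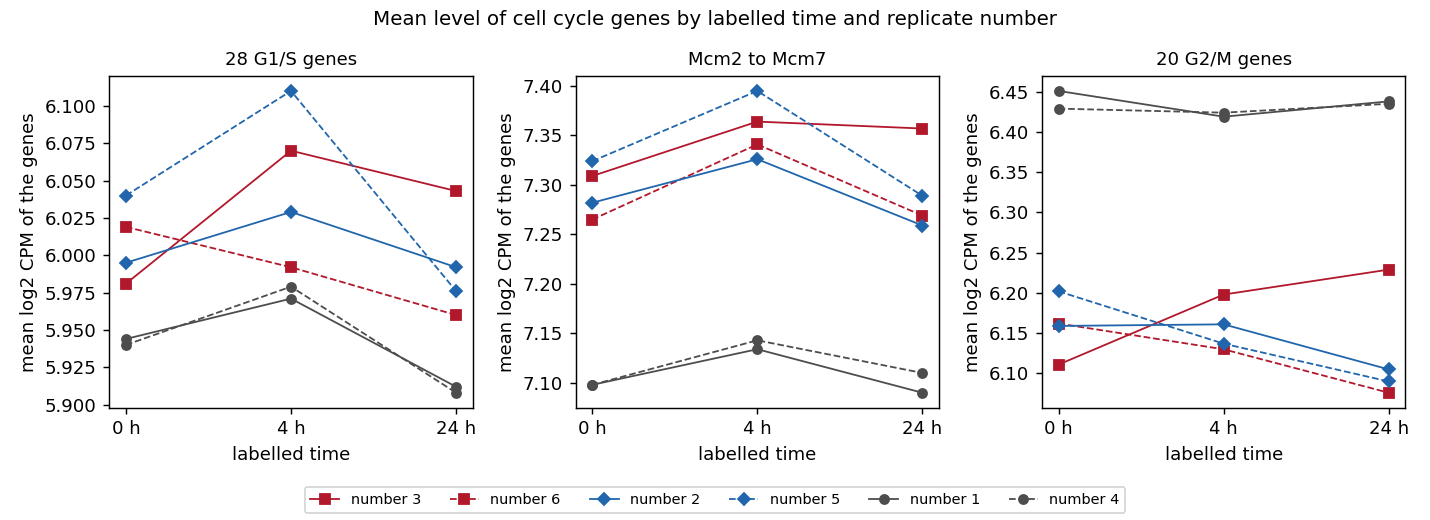
Mean log2 CPM of the 28 G1/S genes, of Mcm2 to Mcm7 and of the 20 G2/M genes (y axes, each with its own range that does not start at 0) against labelled time (x axis), with 1 line per replicate number. The G2/M lines of numbers 1 and 4, at 6.42 to 6.45, lie above those of the other numbers, at 6.08 to 6.23.

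The numbers in the titles went with much more of the variance than the times did. The set of numbers accounted for a median of 77.0% of a member's variance in log2 CPM over the 18 libraries (75.5% for G1/S and 82.97% for G2/M genes, against 62.7% for all genes tested). Labelled time accounted for a median of 2.77% (3.75% for G1/S and 1.99% for G2/M genes, against 3.78% for all genes). Cdk2, the kinase partner of cyclin E, and Gins2, a helicase subunit, had the smallest shares by set, 16.7% and 13.7%. Between the 2 numbers of a set, each with 3 libraries, hardly any gene was called, which does not show that their levels were equal. Number 4 against 1, number 5 against 2 and number 6 against 3 gave 0 members called each with edgeR, where 0.00676%, 0.0% and 0.0% of all genes passed.

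**Figure D2:**
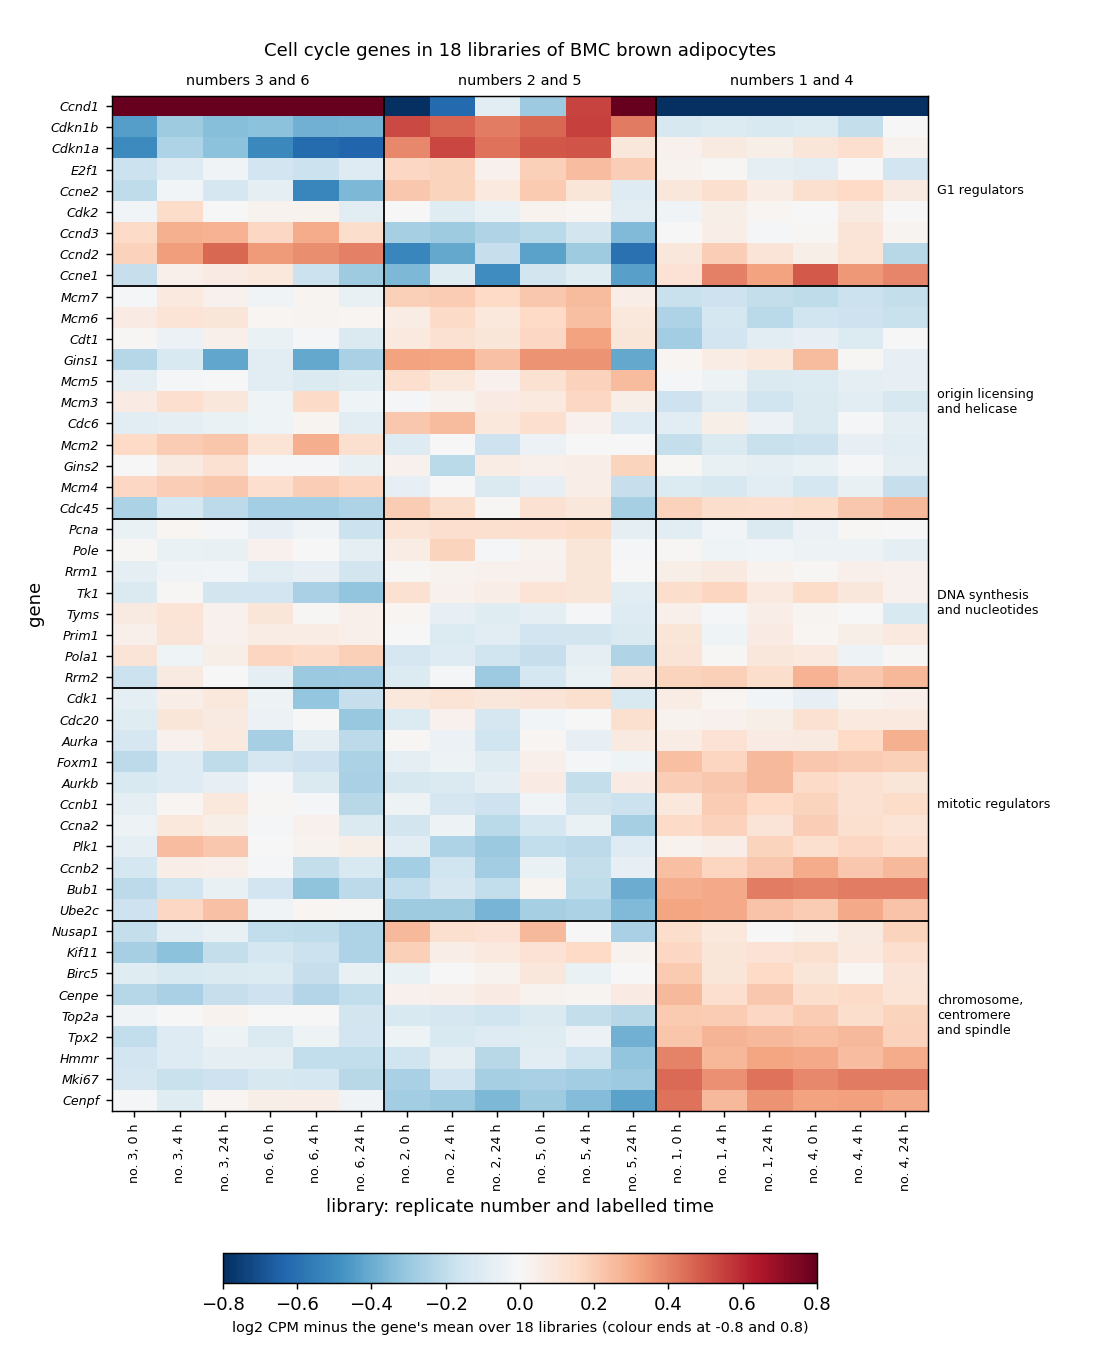
Each cell is the log2 CPM of 1 of the 48 genes (y axis, by role) in 1 of the 18 libraries (x axis, by replicate number and labelled time) minus the mean of that gene over all libraries, with colours ending at -0.8 and 0.8. The colours change at the borders between the sets 3 and 6, 2 and 5, and 1 and 4 and little within them, and most genes of mitosis are highest in numbers 1 and 4.

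Between the sets, most G2/M genes were lower in numbers 2 and 5 and in numbers 3 and 6 than in numbers 1 and 4, while 4 of the 6 genes Mcm2 to Mcm7 were higher in numbers 2 and 5 and 5 of 6 in numbers 3 and 6. With numbers 2 and 5 against 1 and 4, 13 members were higher and 22 lower by edgeR, 35 of 48, where 59.5% of all genes tested passed (29.6% higher and 29.9% lower). With numbers 3 and 6 against 1 and 4, 8 were higher and 26 lower, where 59.7% of all genes passed (30.2% higher and 29.5% lower). These 2 comparisons share the libraries of numbers 1 and 4. With numbers 3 and 6 against 2 and 5, 16 were higher and 20 lower, where 57.1% of all genes passed (28.6% higher and 28.5% lower). The counts depended on the scaling. With library totals 2 were higher and 12 lower, 4 and 0, and 12 and 2 in these 3 comparisons, and with library totals and without the library at 24 h with number 5 they were 16 and 19, 19 and 16, and 22 and 10. None of the 20 G2/M genes was higher in numbers 2 and 5 or in numbers 3 and 6 than in 1 and 4, and 16 and 17 of them were lower. Among the 28 G1/S genes, 13 were higher and 6 lower in numbers 2 and 5, and 8 were higher and 9 lower in numbers 3 and 6.

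The median log2 fold change of the G2/M genes was -0.27 in numbers 2 and 5 and -0.26 in numbers 3 and 6, each against 1 and 4, beside -0.0025 and 0.0042 for all genes. Library totals in place of the scaling moved the median of all genes to -0.09 and 0.17, and the G2/M medians to -0.38 and -0.10, which is -0.29 and -0.27 relative to all genes. The median of the G1/S genes was 0.07 in numbers 2 and 5, or -0.04 with library totals, and 0.01 in numbers 3 and 6, or 0.17 with library totals. Groups of 6 lay wholly apart between numbers 2 and 5 and numbers 1 and 4 for 25 members, 7 above and 18 below, where 35.3% of all genes did so. Between numbers 3 and 6 and numbers 1 and 4 they did so for 31 members, 7 above and 24 below, beside 38.6% of all genes. Between numbers 3 and 6 and numbers 2 and 5 it was 20 members, 10 above and 10 below, beside 29.8%. With the number kept as a block the model called 14 members higher and 22 lower, 8 and 27, and 16 and 21 in the 3 comparisons, where 60.1%, 60.3% and 57.6% of all genes passed.

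Each difference between sets was also fitted in separate libraries, with 1 number from each set. Of the 35 members called with numbers 2 and 5 against 1 and 4, 35 had the same sign in number 2 against 1 and in number 5 against 4, and 26 were called in both. For numbers 3 and 6 against 1 and 4 these counts were 34 of 34 with the same sign and 31 called in both, and for 3 and 6 against 2 and 5 they were 36 of 36 and 24. These members were called with both pairs of numbers joined, so a shared sign was largely fixed in advance. Over all 48 members the sign was the same in both pairs for 45, 39 and 38 in the 3 comparisons. In these 6 comparisons of single numbers 43.2% to 49.9% of all genes passed (47.9% in number 2 against 1, 45.5% in 5 against 4, 49.9% in 3 against 1, 47.2% in 3 against 2 and 43.2% in 6 against 5). Ccnd1 gave unequal values, with a log2 fold change of 0.75 (SE 0.37) in number 2 against 1 and 1.73 (SE 0.38) in number 5 against 4.

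**Figure D3:**
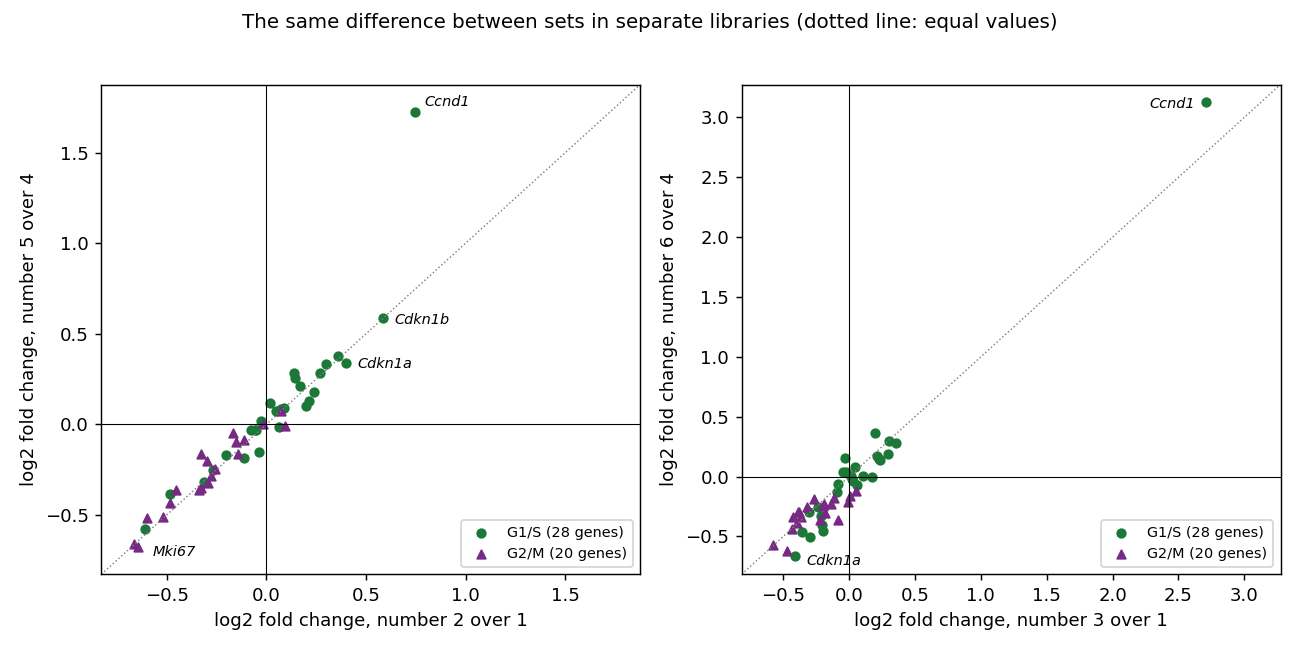
Log2 fold changes of the 48 genes for number 2 over 1 (x axis) and number 5 over 4 (y axis) on the left, and for number 3 over 1 (x axis) and number 6 over 4 (y axis) on the right, with G1/S genes as circles and G2/M genes as triangles. The axes of a panel share no library, and the points follow the dotted line of equal values, except that Ccnd1 lies above it in the left panel, at 0.75 and 1.73.

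Markers of other cell types moved with the sets too. Of 16 markers of preadipocytes and fibroblasts 12 were measured. Of these 11 were higher and 0 lower in numbers 2 and 5 than in 1 and 4, beside 29.6% and 29.9% of all genes. In numbers 3 and 6 against 1 and 4, 12 were higher, beside 30.2% of all genes. Their summed level was 3520.0 to 4281 CPM in numbers 3 and 6, 2946 to 3813 CPM in numbers 2 and 5 and 2024 to 2255 CPM in numbers 1 and 4. Pdgfra, a receptor of fat cell progenitors, averaged 142 ± 14.7 CPM in numbers 3 and 6 and 61.3 ± 3.28 CPM in numbers 1 and 4 (SD, n = 6 each). Thy1, Dpp4, Pi16 and Lum of this list did not pass the filter, and Dpp4 was at 0 in 15 of 18 libraries. The summed markers of brown adipocytes were 4182 to 4978 CPM in numbers 3 and 6, 3958 to 4578 CPM in numbers 2 and 5 and 4627 to 4918 CPM in numbers 1 and 4. Their mean log2 CPM was 5.55 to 5.79 in numbers 3 and 6, 5.31 to 5.60 in numbers 2 and 5 and 5.84 to 5.92 in numbers 1 and 4, with the last set above both others. Ucp1 averaged 1.81 ± 0.534 CPM in numbers 3 and 6, 10.46 ± 0.590 CPM in numbers 2 and 5 and 15.8 ± 1.97 CPM in numbers 1 and 4. Its log2 fold change in numbers 3 and 6 against 1 and 4 was -3.087. Adrb3 and Cox8b of the same list went the other way. They averaged 93.31 ± 6.914 and 4.779 ± 0.9851 CPM in numbers 3 and 6, and 42.99 ± 1.468 and 1.903 ± 0.2925 CPM in numbers 1 and 4. The lower mean in numbers 3 and 6 thus did not hold for every marker. Of the 15 measured, 6 were higher and 6 lower in numbers 3 and 6 than in 1 and 4, beside 30.2% and 29.5% of all genes. In numbers 2 and 5 against 1 and 4, 6 were higher and 8 lower, beside 29.6% and 29.9%. Smooth muscle and pericyte markers, 4 of 7 measured, summed to 63.1 to 85.8 CPM in numbers 3 and 6, 32.4 to 56.7 CPM in numbers 2 and 5 and 29.3 to 32.2 CPM in numbers 1 and 4. A rough sign of RNA quality after depletion was taken from 6 rows. They are those of Yam1, Gm26917, mt-Rnr1, mt-Rnr2 and Lars2, a gene that encodes a protein. Of the 6 rows, 1 was called in numbers 3 and 6 against 1 and 4, where 59.7% of all genes passed. It was Gm26917, with 32300.0 ± 3007 CPM in numbers 3 and 6 and 40900.0 ± 7051 CPM in numbers 1 and 4. In numbers 2 and 5 against 1 and 4, and in 3 and 6 against 2 and 5, 0 were called, where 59.5% and 57.1% of all genes passed. Both comparisons hold the library at 24 h with number 5. The mean log2 CPM of the 6 rows was 15.6 in that library, and 11.81 ± 1.876 in numbers 2 and 5. It was 10.84 ± 0.1598 in numbers 3 and 6 and 11.36 ± 0.3853 in numbers 1 and 4. With that spread, 0 calls do not show equal RNA quality between the sets. The part of these cells and of RNA quality in the differences between sets was not tested.

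Most genes of origin licensing and of the helicase were higher in numbers 2 and 5 than in 1 and 4. There 7 of 11 were called higher and 0 lower, beside 29.6% and 29.9% of all genes. In numbers 3 and 6 against 1 and 4, 5 were higher and 2 lower, beside 30.2% and 29.5%. Against 2 and 5, 2 were higher and 6 lower, beside 28.6% and 28.5%. Of these 6, Mcm5, Mcm7, Cdc6 and Cdt1 turned positive with library totals in place of the scaling (0.08 to 0.09), where the median of all genes was 0.25. Mcm7, a helicase subunit, had 191 to 209.8 CPM in numbers 3 and 6 (median 199.5), 206.5 to 237 CPM in numbers 2 and 5 (median 228) and 172.5 to 177 CPM in numbers 1 and 4 (median 175). All libraries of numbers 1 and 4 lay below all others. The fitted log2 fold change was 0.37 (edgeR adjusted p = 1.97e-10, SE 0.03) in numbers 2 and 5 and 0.19 (adjusted p = 1.30e-05, SE 0.03) in numbers 3 and 6, each against 1 and 4. Mcm6, another subunit, had log2 fold changes of 0.32 (edgeR adjusted p = 8.44e-09, SE 0.03) and 0.24 (adjusted p = 7.54e-07, SE 0.03) in the same comparisons.

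The subunits of the helicase did not share 1 order of the sets. Mcm2 had 148 to 167 CPM in numbers 3 and 6 (median 155), 122 to 137 CPM in numbers 2 and 5 (median 134) and 119.7 to 130.4 CPM in numbers 1 and 4 (median 124). Numbers 3 and 6 lay above both other sets, which overlapped each other. Its log2 fold change was 0.32 (edgeR adjusted p = 4.01e-09, SE 0.03) in numbers 3 and 6 and 0.08 (adjusted p = 0.0594, SE 0.03) in numbers 2 and 5, each against 1 and 4. With the number as a block the second value passed too (edgeR adjusted p = 0.0471). Mcm4 averaged 192 ± 3.68 CPM in numbers 3 and 6, 163 ± 9.29 CPM in numbers 2 and 5 and 156.5 ± 4.58 CPM in numbers 1 and 4 (SD, n = 6 each). In contrast Mcm5 averaged 101 ± 3.30 CPM in numbers 3 and 6, 117 ± 6.18 CPM in numbers 2 and 5 and 101 ± 2.74 CPM in numbers 1 and 4. For Mcm3 the means were 124.7 ± 6.92, 124.7 ± 5.07 and 109.5 ± 2.53 CPM in the same order, so that both other sets were above 1 and 4. With library totals in place of the scaling, the log2 fold changes of Mcm2 and Mcm4 in numbers 2 and 5 against 1 and 4 were -0.04 and -0.05, and those of the other 4 genes stayed above 0. The median of all genes was -0.09 with that setting.

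Loading factors and the remaining helicase subunits followed other patterns. Cdc6 and Cdt1 load the helicase onto origins. They were higher in numbers 2 and 5 than in 1 and 4, by log2 0.18 (edgeR adjusted p = 0.00156, SE 0.05) for Cdc6 and 0.27 (adjusted p = 1.30e-05, SE 0.05) for Cdt1. In numbers 3 and 6 against 1 and 4 their log2 fold changes were -0.01 (95% interval -0.10 to 0.09) and 0.09 (-0.0025 to 0.18), which did not pass. Cdc45 and the GINS complex join the helicase when origins fire. Cdc45 averaged 37.9 ± 1.31 CPM in numbers 3 and 6, 46.4 ± 4.99 CPM in numbers 2 and 5 and 50.5 ± 1.78 CPM in numbers 1 and 4, and fell in numbers 3 and 6 by 0.41 on the log2 scale against 1 and 4 (edgeR adjusted p = 7.77e-09, SE 0.04). Gins1 had 7.27 to 9.09 CPM in numbers 3 and 6 (median 8.18), 7.29 to 12.4 CPM in numbers 2 and 5 (median 12.1) and 9.25 to 11.53 CPM in numbers 1 and 4 (median 9.95). The lowest value in numbers 2 and 5 is the library at 24 h with number 5. Gins2 did not pass in any comparison. Licensing genes with an E2F match in the promoter numbered 6. In numbers 2 and 5 against 1 and 4 all 6 were higher, beside 29.6% of all genes. In numbers 3 and 6, 3 were higher than in 1 and 4, beside 30.2%. Against 2 and 5, 4 were lower in numbers 3 and 6, beside 28.5%. All 4 were above 0 with library totals, where the median of all genes was 0.25. Of the other G1/S genes with a match, Pola1 was lower and Cdk2 did not pass in numbers 2 and 5 against 1 and 4. In numbers 3 and 6 against 1 and 4 neither passed.

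Genes of DNA synthesis and nucleotide supply moved little and in both directions. With numbers 2 and 5 against 1 and 4, 2 of 8 were higher and 3 lower, beside 29.6% and 29.9% of all genes. Pole, one of the higher, turned to -0.02 with library totals in place of the scaling, where the median of all genes was -0.09. With numbers 3 and 6 against 1 and 4, 0 were higher and 3 lower, beside 30.2% and 29.5%. Rrm1, one of the lower, turned to 0.05 with library totals, where that median was 0.17. Against 2 and 5, 3 were higher and 4 lower, beside 28.6% and 28.5%. All 4 of the lower (Pcna, Pole, Rrm1 and Tk1) turned positive with library totals, where that median was 0.25. Pcna had 111 to 126 CPM in numbers 3 and 6 (median 121), 118 to 138 CPM in numbers 2 and 5 (median 136.5) and 115 to 125.5 CPM in numbers 1 and 4 (median 122). The ranges overlap, and the log2 fold change in numbers 2 and 5 against 1 and 4 was 0.15 (edgeR adjusted p = 0.000739, SE 0.04). Rrm2, the regulated subunit of ribonucleotide reductase, averaged 64.0 ± 6.80 CPM in numbers 3 and 6, 65.8 ± 5.94 CPM in numbers 2 and 5 and 80.6 ± 2.93 CPM in numbers 1 and 4. It fell by 0.32 on the log2 scale in numbers 2 and 5 and by 0.32 in numbers 3 and 6, each against 1 and 4 (SE 0.06 each, edgeR adjusted p = 0.000191 and 9.98e-05). Tk1, thymidine kinase, averaged 70.9 ± 5.61 CPM in numbers 3 and 6, 82.4 ± 4.29 CPM in numbers 2 and 5 and 85.5 ± 2.98 CPM in numbers 1 and 4. Pola1 and Prim1, of the primase complex that starts each new strand, had log2 fold changes of -0.19 and -0.15 in numbers 2 and 5 and of 0.06 and 0.01 in numbers 3 and 6, each against 1 and 4, and only the first pair passed. Tyms, thymidylate synthase, passed only in numbers 3 and 6 against 2 and 5, with a log2 fold change of 0.12 (SE 0.03).

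**Figure D4:**
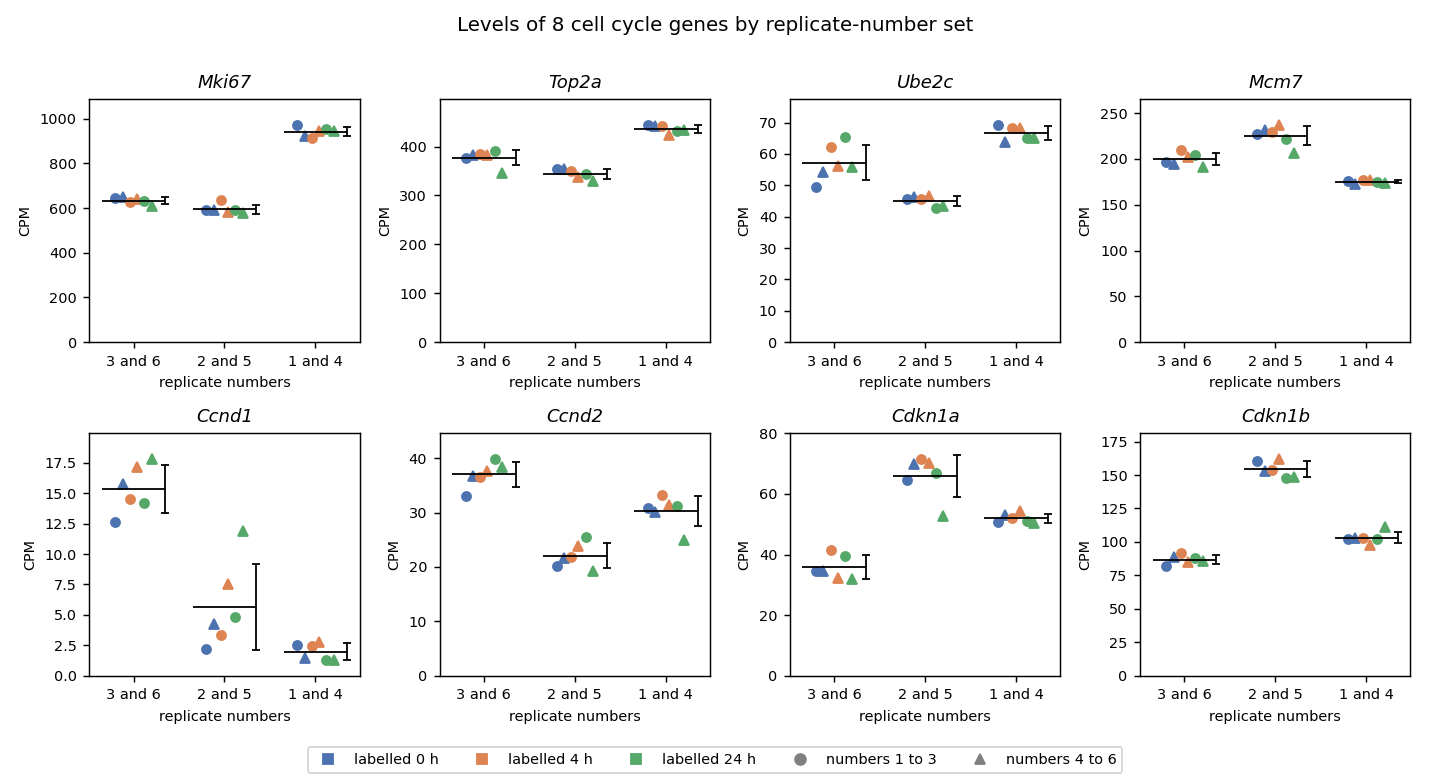
CPM (y axes, from 0) of 8 genes in each library, by set of replicate numbers (x axis), with colour for labelled time, shape for the number within the set, and a line and bar for the mean and SD of 6 libraries. Mki67, Top2a and Ube2c are highest in numbers 1 and 4, Mcm7, Cdkn1a and Cdkn1b in numbers 2 and 5, and Ccnd1 and Ccnd2 in numbers 3 and 6.

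The G1 regulators included the largest differences among the members, and cyclin D1 had another order of the sets than cyclins D2 and D3. Ccnd1 had 12.6 to 17.8 CPM in numbers 3 and 6 (median 15.1), 2.21 to 11.9 CPM in numbers 2 and 5 (median 4.53) and 1.26 to 2.80 CPM in numbers 1 and 4 (median 1.93). Numbers 3 and 6 lay above both other sets, and numbers 2 and 5 overlapped 1 and 4. The log2 fold change was 2.92 (edgeR adjusted p = 1.90e-07, SE 0.26) in numbers 3 and 6 and 1.24 (adjusted p = 0.00379, SE 0.32) in numbers 2 and 5, each against 1 and 4. Between the other two sets it was 1.68 (edgeR adjusted p = 3.14e-05, SE 0.24), in numbers 3 and 6 against 2 and 5. Within numbers 2 and 5 the level followed the order of the labelled times. It was 2.21, 3.35 and 4.84 CPM at 0, 4 and 24 h in number 2, and 4.21, 7.498 and 11.9 CPM at these times in number 5, the last from the library with 41.5% of its counts on Yam1 and Gm26917. For numbers 3 and 6 the levels were 12.6, 14.5 and 14.2 CPM and 15.7, 17.1 and 17.8 CPM at these times. In numbers 1 and 4 it was 2.51, 2.41 and 1.26 CPM and 1.45, 2.80 and 1.27 CPM at these times, with no common order.

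Ccnd2 had 33.0 to 39.9 CPM in numbers 3 and 6 (median 37.2), 19.2 to 25.6 CPM in numbers 2 and 5 (median 21.7) and 24.9 to 33.3 CPM in numbers 1 and 4 (median 31.0). Only numbers 3 and 6 against 2 and 5 lay wholly apart, with a log2 fold change of 0.72 (edgeR adjusted p = 8.51e-11, SE 0.06). Against 1 and 4 it was 0.28 (edgeR adjusted p = 0.000102, SE 0.06) in numbers 3 and 6 and -0.44 (adjusted p = 6.83e-07, SE 0.06) in numbers 2 and 5. Ccnd3, cyclin D3, averaged 40.4 ± 2.06 CPM in numbers 3 and 6, 29.2 ± 1.37 CPM in numbers 2 and 5 and 35.4 ± 1.02 CPM in numbers 1 and 4, the same order as Ccnd2. The E cyclins, which act after the D cyclins, were not highest in numbers 3 and 6. Ccne1 averaged 14.1 ± 1.52 CPM in numbers 3 and 6, 12.3 ± 1.52 CPM in numbers 2 and 5 and 18.8 ± 1.60 CPM in numbers 1 and 4. Ccne2 averaged 45.8 ± 5.73 CPM in numbers 3 and 6, 57.4 ± 4.62 CPM in numbers 2 and 5 and 57.0 ± 1.504 CPM in numbers 1 and 4.

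The inhibitors were ordered opposite to the cyclins D2 and D3. Cdkn1b had 82.0 to 91.3 CPM in numbers 3 and 6 (median 86.7), 148 to 162 CPM in numbers 2 and 5 (median 153) and 97.6 to 111 CPM in numbers 1 and 4 (median 103). The 3 sets did not overlap. The fitted log2 fold change was 0.59 (edgeR adjusted p = 1.25e-13, SE 0.04) in numbers 2 and 5 and -0.25 (adjusted p = 1.45e-06, SE 0.04) in numbers 3 and 6, each against 1 and 4. It was -0.83 (edgeR adjusted p = 1.10e-16, SE 0.04) in numbers 3 and 6 against 2 and 5. Cdkn1a had 31.9 to 41.6 CPM in numbers 3 and 6 (median 34.7), 52.7 to 71.6 CPM in numbers 2 and 5 (median 68.4) and 50.5 to 54.2 CPM in numbers 1 and 4 (median 51.6). The overlap between numbers 2 and 5 and 1 and 4 came from the library at 24 h with number 5. The log2 fold change of Cdkn1a was 0.37 (edgeR adjusted p = 3.63e-06, SE 0.06) in numbers 2 and 5 and -0.53 (adjusted p = 1.55e-08, SE 0.06) in numbers 3 and 6, each against 1 and 4. E2f1, an E2F transcription factor, averaged 36.5 ± 1.42 CPM in numbers 3 and 6, 44.7 ± 2.12 CPM in numbers 2 and 5 and 38.5 ± 1.83 CPM in numbers 1 and 4.

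Most regulators of mitosis were highest in numbers 1 and 4. In numbers 2 and 5 against 1 and 4, 0 of 11 were higher and 9 lower, beside 29.6% and 29.9% of all genes. In numbers 3 and 6 against 1 and 4, 0 were higher and 8 lower, beside 30.2% and 29.5%. Between numbers 3 and 6 and numbers 2 and 5, 4 were higher and 2 lower, beside 28.6% and 28.5%. The 2 lower, Cdk1 and Foxm1, turned positive with library totals (0.11 and 0.13), where the median of all genes was 0.25. Ube2c, the ubiquitin-conjugating enzyme of the anaphase-promoting complex, had 49.5 to 65.3 CPM in numbers 3 and 6 (median 56.0), 42.8 to 46.5 CPM in numbers 2 and 5 (median 45.6) and 63.8 to 69.2 CPM in numbers 1 and 4 (median 66.7). Numbers 2 and 5 lay below both other sets. Its log2 fold change was -0.56 (edgeR adjusted p = 1.73e-10, SE 0.05) in numbers 2 and 5 and -0.22 (adjusted p = 0.000242, SE 0.05) in numbers 3 and 6, each against 1 and 4. Bub1, a kinase of the spindle checkpoint, had 23.4 to 28.1 CPM in numbers 3 and 6 (median 25.8), 22.2 to 29.6 CPM in numbers 2 and 5 (median 25.5) and 35.7 to 38.9 CPM in numbers 1 and 4 (median 38.6). Both other sets lay below numbers 1 and 4, with log2 fold changes of -0.52 and -0.55 (SE 0.05 each, edgeR adjusted p = 1.09e-09 and 1.42e-10) in numbers 2 and 5 and in numbers 3 and 6.

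The mitotic cyclins and their partners differed in how far they moved. Ccnb1 and Ccnb2, cyclins B1 and B2, had log2 fold changes of -0.26 and -0.41 in numbers 2 and 5 and of -0.18 and -0.29 in numbers 3 and 6, each against 1 and 4. Ccna2, cyclin A2, which also acts in S phase, had -0.28 and -0.15, the last of which was 0.02 with library totals, beside a median of 0.17 for all genes. All 6 passed. Their kinase Cdk1 did not pass against 1 and 4, with log2 0.07 (95% interval -0.03 to 0.18) in numbers 2 and 5 and -0.07 (-0.18 to 0.03) in numbers 3 and 6. Cdc20, an activator of the anaphase-promoting complex, did not pass either, with -0.10 (-0.21 to 0.01) and -0.10 (-0.21 to 0.0013), but with the number as a block it passed in numbers 3 and 6 against 1 and 4, at -0.11 (edgeR adjusted p = 0.0454, SE 0.05). Foxm1, the transcription factor of many mitotic genes, averaged 94.9 ± 3.56 CPM in numbers 3 and 6, 104.6 ± 3.52 CPM in numbers 2 and 5 and 124 ± 2.91 CPM in numbers 1 and 4, with no overlap between any 2 sets. The mitotic kinase gene Plk1 was lower in numbers 2 and 5 than in 1 and 4 (log2 -0.31, SE 0.05, edgeR adjusted p = 1.32e-05) and had -0.03 (95% interval -0.13 to 0.07) in numbers 3 and 6. The Aurora kinase genes Aurka and Aurkb fell in both comparisons, by 0.15 to 0.29 on the log2 scale.

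Genes of the chromosome surface, centromere and spindle included the largest differences among the G2/M members. With 0 of 9 higher in either comparison with 1 and 4, 7 were lower in numbers 2 and 5 and 9 in numbers 3 and 6. Of all genes 29.9% and 29.5% were lower in these comparisons. Mki67 had 607.5 to 648 CPM in numbers 3 and 6 (median 637), 580.1 to 636 CPM in numbers 2 and 5 (median 591) and 914 to 971 CPM in numbers 1 and 4 (median 944). The gap to numbers 1 and 4 was wider than the whole range within any set. The log2 fold change was -0.66 (edgeR adjusted p = 4.76e-15, SE 0.04) in numbers 2 and 5 and -0.57 (adjusted p = 9.63e-14, SE 0.04) in numbers 3 and 6, each against 1 and 4. Cenpf, a centromere protein of late G2, had 153.5 to 170.5 CPM in numbers 3 and 6 (median 165), 122 to 136 CPM in numbers 2 and 5 (median 131) and 197 to 222 CPM in numbers 1 and 4 (median 206). The 3 sets did not overlap, and its log2 fold changes were -0.66 (edgeR adjusted p = 3.71e-15, SE 0.04) and -0.34 (adjusted p = 2.12e-09, SE 0.03) in the same comparisons.

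Top2a had 346.5 to 392 CPM in numbers 3 and 6 (median 383), 329 to 354 CPM in numbers 2 and 5 (median 347.5) and 424 to 444 CPM in numbers 1 and 4 (median 438). Numbers 1 and 4 lay above both others, by a log2 fold change of -0.34 (edgeR adjusted p = 2.44e-09, SE 0.03) for numbers 2 and 5 and -0.21 (adjusted p = 6.88e-06, SE 0.03) for numbers 3 and 6. Hmmr, a spindle protein that also binds hyaluronan, had -0.46 and -0.44 in these comparisons, and Tpx2, which builds microtubules at the spindle, had -0.35 and -0.35. Kif11, the motor that pushes the spindle poles apart, was set apart by 1 of the sets. It had 85.6 to 97.7 CPM in numbers 3 and 6 (median 92.5), 109.7 to 123 CPM in numbers 2 and 5 (median 115) and 113 to 121 CPM in numbers 1 and 4 (median 117). The fitted log2 fold change was -0.34 (edgeR adjusted p = 1.81e-09, SE 0.03) in numbers 3 and 6 against 1 and 4, and -0.01 (95% interval -0.08 to 0.06) in numbers 2 and 5. Nusap1, a spindle protein, and Cenpe, a motor of the centromere, also had their lowest means in numbers 3 and 6, at 42.9 ± 2.27 and 136 ± 3.31 CPM (SD, n = 6 each). Cenpe in numbers 3 and 6 against 2 and 5 turned to 0.02 with library totals, where the median of all genes was 0.25. Birc5, survivin, had log2 fold changes of -0.11 in numbers 2 and 5 and -0.23 in numbers 3 and 6, each against 1 and 4.

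**Figure D5:**
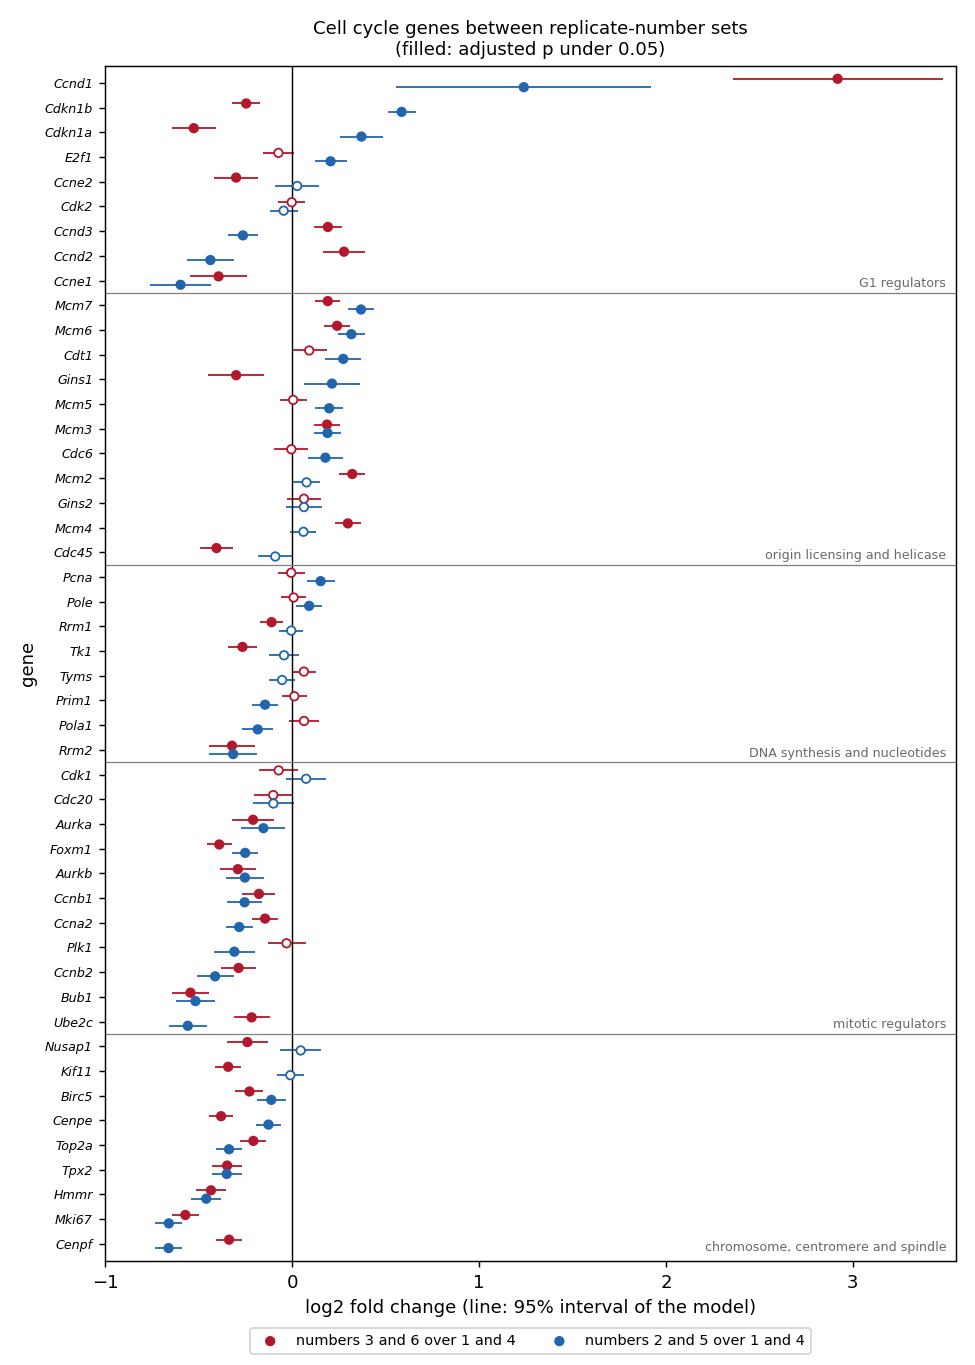
Log2 fold change (x axis) of each of the 48 genes (y axis, by role) in numbers 3 and 6 over 1 and 4 and in numbers 2 and 5 over 1 and 4, with 95% intervals of the edgeR model and filled points for adjusted p under 0.05. The points of G2/M genes lie left of 0, except Cdk1 and Nusap1 in numbers 2 and 5 (0.07 and 0.04), and those of Mcm2 to Mcm7 at or right of 0. With library totals in place of the scaling, Mcm2 and Mcm4 in numbers 2 and 5 would lie left of it (-0.04 and -0.05), beside a median of -0.09 for all genes.

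Wider lists of the same processes, all chosen with results of these data known, gave the following counts beside the background above. Of 48 other S phase genes, 20 were higher and 13 lower in numbers 2 and 5, and 9 higher and 13 lower in numbers 3 and 6, each against 1 and 4. Ung, the uracil-DNA glycosylase, averaged 52.5 ± 2.60 CPM in numbers 3 and 6, 55.4 ± 3.17 CPM in numbers 2 and 5 and 31.7 ± 2.61 CPM in numbers 1 and 4. Cdc25a, a phosphatase that activates the S phase kinases, averaged 35.3 ± 1.98, 36.7 ± 2.86 and 24.2 ± 1.74 CPM in the same order. Of 65 other mitosis genes, 4 were higher and 43 lower in numbers 2 and 5, and 1 higher and 55 lower in numbers 3 and 6, each against 1 and 4. Cdca3, a trigger of mitotic entry, averaged 57.6 ± 5.45 CPM in numbers 3 and 6, 60.7 ± 3.11 CPM in numbers 2 and 5 and 94.02 ± 1.86 CPM in numbers 1 and 4. The median log2 fold change of these mitosis genes was -0.19 in numbers 2 and 5 and -0.26 in numbers 3 and 6.

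Regulators of G1 and quiescence outside the members differed in both directions. Of 33 such genes 32 were tested, and 14 were higher and 9 lower in numbers 2 and 5 than in 1 and 4, beside 29.6% and 29.9% of all genes. In numbers 3 and 6 against 1 and 4, 8 were higher and 14 lower, beside 30.2% and 29.5%. Btg2, an antiproliferative gene, averaged 21.6 ± 1.77 CPM in numbers 3 and 6, 23.9 ± 3.88 CPM in numbers 2 and 5 and 187 ± 44.8 CPM in numbers 1 and 4. Gadd45a, a growth arrest gene, averaged 8.41 ± 0.611, 22.01 ± 2.19 and 35.9 ± 1.33 CPM in the same order, and its log2 fold change in numbers 3 and 6 against 1 and 4 was -2.08 (edgeR adjusted p = 2.60e-21, SE 0.06). Numbers 3 and 6 stood below 2 and 5 for Ccng2, cyclin G2, with 32.5 ± 1.73 against 102 ± 6.06 CPM, for Btg1 with 183 ± 14.4 against 502 ± 34.4 CPM and for Cdkn1c, which encodes p57, with 6.62 ± 0.826 against 18.4 ± 3.84 CPM. Of 17 targets of p53, the factor that induces Cdkn1a, 6 were higher and 6 lower in numbers 2 and 5, and 7 higher and 7 lower in numbers 3 and 6, each against 1 and 4. The shares of all genes in these comparisons are those just given. Among the targets Fas, a death receptor, averaged 8.04 ± 0.707 CPM in numbers 3 and 6, 14.9 ± 1.53 CPM in numbers 2 and 5 and 6.61 ± 0.468 CPM in numbers 1 and 4. Phlda3 averaged 50.2 ± 3.54, 18.8 ± 1.44 and 54.9 ± 3.501 CPM in the same order of sets. Neither had the order of Cdkn1a or its reverse.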

How the data were processed

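Total RNA after ribosomal RNA depletion was sequenced as strand-selected 52-base pairs from 250 ng per library, per the labels' protocols. The values are expected counts per gene as deposited by the authors, of which 27.4% of those above 0 are not whole (tolerance 1e-06), and no other value columns were present (0). Tools and builds listed in the submitters' processing notes are limma, edgeR and mm10. How reads were assigned to strands, with which quantifier release and gene models, is not given in the sources used here. Here the expected counts were rounded, filtered with filterByExpr (minimum count 10, minimum total 15), which kept 14788 genes and at least 99.91% of the counts, and scaled by the trimmed mean of M values. Log2 CPM used a prior count of 2. Times were compared with edgeR's robust quasi-likelihood test over all 18 libraries with time as the term, and sets with time and set as terms, with Benjamini-Hochberg adjustment over all genes and a threshold of 0.05. The scripts were tested on simulated data.

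The numbers in the titles pair libraries across times in these data (all 18 same-number pairs correlate above 0.1, from 0.297), while no label ties a number to a culture or day. The members, the gene lists and the sets were chosen with earlier results of these data known. Named members are Mki67, Top2a, Ccnd1, Ccnd2, Cdkn1a, Cdkn1b, Pcna and Mcm2 and the 4 with the largest rises and falls per comparison of sets, other members are named to describe their role, and at most 3 genes are named from each other list and comparison. Alternatives were DESeq2 size factors, library totals, no filter, DESeq2, limma-voom, leaving out the library at 24 h with number 5, the replicate block, and set as the only term. Software was DESeq2 1.42.0, limma 3.58.1 and edgeR 4.0.16 in R 4.3.3, and pandas 2.3.3, matplotlib 3.10.9 and numpy 2.4.6 in Python 3.11.15.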

Additional observations from a re-analysis of the deposited data

Results flagged for a closer look

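In 15 of 288 groups of 6 libraries, 1 library's CPM for a member lay far from the other 5 by Dixon's ratio (above 0.625). Chance gives about 1 in 20 such groups. The library at 24 h with number 5 gave 5 of the 15, all below the rest of numbers 2 and 5: Cdkn1a at 52.71 CPM, Gins1 at 7.293 CPM, Pcna at 118.0 CPM, Cdk1 at 68.95 CPM and Tpx2 at 78.23 CPM. Within numbers 2 and 5, the library at 4 h with number 5 was high for Cdt1 at 71.81 CPM and Rrm1 at 191.0 CPM, and the one at 4 h with number 2 was high for Mki67 at 635.9 CPM. Among the libraries at 4 h, number 6 was low for Ccne2 at 36.97 CPM and Cdk1 at 60.52 CPM, and number 2 was high for Cdc6 at 32.64 CPM. Among those at 24 h, number 2 was high for Cdc6 at 29.06 CPM and number 6 low for Rrm1 at 161.4 CPM. The library at 24 h with number 6 was low for Top2a within numbers 3 and 6 at 346.5 CPM, and the one at 24 h with number 4 was low for Tyms within numbers 1 and 4 at 79.54 CPM.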

How the results depend on the processing

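In comparisons of labelled times, each of 1152 alternative values for members kept its side of the threshold, with 0 called, the replicate block included. In comparisons of sets, 1165 of 1296 did so with the same direction, 85 lost and 20 gained the call, and 26 turned round. All 26 arose with library totals in place of the scaling, 15 with all libraries and 11 without the one at 24 h with number 5. With all libraries that setting moved the median of all genes by -0.17 and -0.16 at 24 h against 0 h and 4 h, and by -0.09, 0.17 and 0.25 in numbers 2 and 5 against 1 and 4, 3 and 6 against 1 and 4, and 3 and 6 against 2 and 5. It gave medians of -0.1911 (G1/S) and -0.1863 (G2/M) at 24 h against 0 h, and -0.2257 (G1/S) at 24 h against 4 h. In numbers 2 and 5 against 1 and 4, 2 members were higher and 12 lower, with medians of -0.0385 (G1/S) and -0.3786 (G2/M), and Pole was -0.01974. In numbers 3 and 6 against 1 and 4, 4 were higher and 0 lower, with medians of 0.1691 and -0.1043, and Rrm1 was 0.0522 and Ccna2 0.01749. In numbers 3 and 6 against 2 and 5, 12 were higher and 2 lower, with medians of 0.1927 and 0.2655. There the log2 fold change was 0.08387 for Mcm5, 0.09043 for Mcm7, 0.08647 for Cdc6, 0.08783 for Cdt1, 0.1089 for Pcna, 0.1894 for Pole, 0.1663 for Rrm1, 0.0426 for Tk1, 0.1148 for Cdk1, 0.1337 for Foxm1, 0.02015 for Cenpe and 0.1484 for Birc5. An alternative chosen after seeing the data also left out the library at 24 h with number 5. In numbers 2 and 5 against 1 and 4 it gave medians of 0.1142 and -0.2264. In numbers 3 and 6 against 1 and 4 it called 19 higher and 16 lower, with medians of 0.1656 and -0.1077, and values of 0.1542 for Cdk2, 0.1491 for Cdc6, 0.1537 for Pcna, 0.04915 for Rrm1, 0.01389 for Ccna2 and 0.1249 for Plk1. In numbers 3 and 6 against 2 and 5 it called 22 higher and 10 lower, with medians of 0.03238 and 0.1087, and values of 0.1126 for Mcm3, 0.02997 for Pole, 0.006923 for Rrm1, 0.1329 for Rrm2 and 0.129 for Cdc20. Relative to all genes the G2/M median against numbers 1 and 4 stayed between -0.29 and -0.27 under both settings. Without the library at 24 h with number 5, Ccne1 and Mki67 lost and Mcm6 gained the call in numbers 3 and 6 against 2 and 5. With the replicate block Mcm2 in numbers 2 and 5 and Cdc20 in numbers 3 and 6, each against 1 and 4, gained the call, as did Mcm6 in numbers 3 and 6 against 2 and 5. Why the values changed was not tested further.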
